A study of Mus musculus with 2 samples.

Results

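The genes of the Wnt ligands, their Frizzled receptors, the co-receptors Lrp5 and Lrp6, the secreted antagonists and the feedback gene Axin2 were followed in cultured mouse cavernous endothelial cells (MCECs) kept in high glucose. The members were found by symbol. They were every Wnt, Fzd, Sfrp or Dkk symbol that ends in a number, with or without a letter after it, together with Axin2, Lrp5, Lrp6, Wif1 and Frzb. This gave 42 of the 23183 gene symbols in the files, with 19 ligands, 10 receptors, 2 co-receptors, 6 antagonists that bind Wnt proteins, 4 Dkk antagonists and Axin2.

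The study sequenced 1 library of MCECs in high glucose (30 mM) with HBS, the vehicle (HG+HBS), and 1 library in high glucose with PC-NVs at 1 µg/mL (HG+PC-NVs). PC-NVs are nanovesicles made by pressing cultured cavernous pericytes through an extruder. According to the methods, RNA was taken 72 hours after glucose exposure and 24 hours after PC-NVs were added, whereas the labels of the samples name 5 days in glucose. The MCECs were low-passage primary cells that grew out of penile tissue of adult male C57BL/6J mice, and they were starved of serum before the glucose exposure. The growth medium held serum, heparin and VEGF according to the methods. Both libraries share the glucose condition, so that neither is a normal-glucose control.

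Wnt proteins are secreted lipid-modified ligands. In the canonical branch they bind a Frizzled receptor together with Lrp5 or Lrp6, which spares β-catenin from degradation and lets it act with LEF/TCF factors on target genes. In the non-canonical branch, of which Wnt5a is the best known ligand, the signal runs through Frizzled and Ror receptors to the cytoskeleton and calcium. Sfrp proteins, Frzb and Wif1 bind the ligands outside the cell, whereas Dkk proteins such as Dkk1 and Dkk2 act on the co-receptors. In endothelium the pathway is known for guiding retinal vessels, through Norrin, Fzd4 and Lrp5, and for building the blood-brain barrier, through Wnt7a and Wnt7b.

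Values are normalized FPKM (fragments per kilobase of transcript, scaled to the size of the library), and the rows of a symbol were summed. FPKM is a level per length, so genes can be set side by side. About 13300000 fragments lay behind the HG+HBS library and 11600000 behind the HG+PC-NVs library, as estimated from the steps between low values. A difference is given as a log2 ratio of FPKM + 1, HG+PC-NVs over HG+HBS, and a fold without this pseudocount is given with its 95% Wilson interval from approximate fragments. Such intervals cover counting error only. With 1 library per condition there is no test of a difference against the spread between cultures, and "higher" and "lower" refer to these libraries. Fewer cells of a type and less RNA per cell cannot be told apart in such bulk RNA. The paper assumed that PC-NVs carry and pass on the genes it selected. Whether RNA from the vesicles added to the HG+PC-NVs values was not tested.

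The labelled cell type was weakly represented in the RNA. Of 12 endothelial markers, 4 reached 1 FPKM in HG+HBS and 2 did in HG+PC-NVs, and the junction proteins Pecam1 and Cdh5 stood at 1.05 and 0.938 FPKM and at 5.05 and 5.73 FPKM. Kdr, the VEGF receptor that marks endothelium, had 0.518 and 0.438 FPKM. Pecam1 and Flt1 (1.19 and 0.835 FPKM) were the markers that crossed 1 FPKM between the libraries. The 12 lay between 0.133 and 9.48 FPKM in HG+HBS and between 0.0199 and 8.57 FPKM in HG+PC-NVs, with Egfl7 the highest. All 8 fibroblast markers were at 45.4 to 623 FPKM in HG+HBS and at 36.3 to 1283 FPKM in HG+PC-NVs. Pericyte markers lay between 1.21 and 38.4 FPKM in HG+HBS and between 0.855 and 33.7 FPKM in HG+PC-NVs. Which cells of the cultures carried the Wnt genes was not tested.

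The 2 members that differed most were antagonists, and both were lower with PC-NVs. Dkk2 stood at 35.1 FPKM with HBS and 11.4 FPKM with PC-NVs, and Frzb at 23.996 and 7.96 FPKM. The ligands and Frizzled receptors with the highest levels, Wnt5a and Fzd1, were nearly level between the libraries. To keep sampling noise out of the counts, a gene was counted when its mean log2(FPKM + 1) over both libraries was at least 1, which 17 of the 42 members and 11785 of all symbols passed. For these counts a fold is that of FPKM + 1, which is smaller than the FPKM fold of a low gene. Of these 17 members, 2 were lower by over 2-fold (11.8%), against 0.798% of all symbols, and 0 were higher by over 2-fold, against 2.38% of all symbols. At a fold of 1.5, 5 of the 17 were lower (29.4%), against 3.57% of all symbols, and 0 were higher, against 5.33%. The 5 were Dkk2, Frzb, Dkk3, Sfrp2 and Lrp5. The median log2 ratio of the 17 was -0.32, beside -0.01 over all symbols. Of the 17, 14 were lower and 3 higher, while 51.6% of all symbols counted were lower. With a pseudocount of 5 the median was -0.17, and without the filter (35 members) it was -0.16. With upper-quartile scaling, which moves all symbols by -0.32, 16 were lower before that shift is taken off, and with the highest row of each symbol in place of the sum 13 were.

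**Figure D1:**
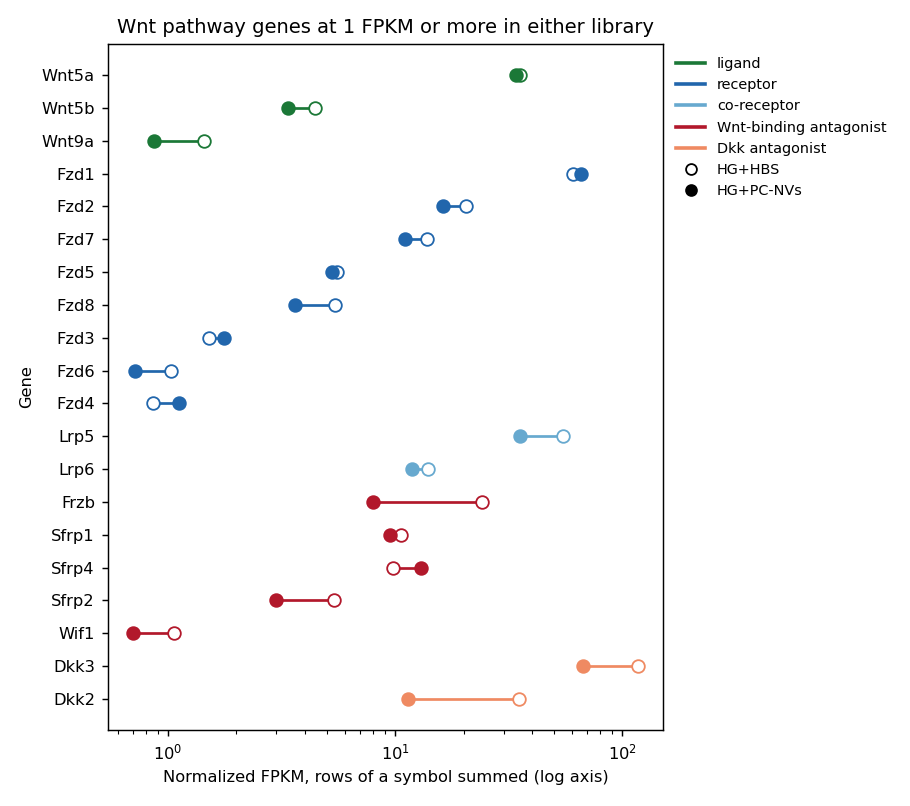
Normalized FPKM (log axis) of the 20 members at 1 FPKM or more in at least one library, by role. Open circles are HG+HBS, filled circles are HG+PC-NVs and a line joins the libraries. The longest lines belong to Frzb (23.996 to 7.96 FPKM) and Dkk2 (35.1 to 11.4 FPKM).

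The Dkk genes were grouped as antagonists of the co-receptors, although for Dkk3 this is debated. Dkk2, on the forward strand of chromosome 3 (GRCm38, 132085292 to 132180304), encodes a secreted protein that binds Lrp5 and Lrp6 and, unlike Dkk1, can block or weakly activate the pathway depending on its partner Kremen. Its level was 3.08-fold lower in HG+PC-NVs (2.79 to 3.41, about 1731 and 490.2 fragments), a log2 ratio of -1.54. It ranked 21 from the lowest among the 11785 log2 ratios. Dkk3 (chromosome 7, 112116017 to 112159057), a divergent family member whose place in Wnt signalling is debated, was the highest of the 42 members in both libraries, with 117 FPKM with HBS and 66.8 FPKM with PC-NVs. It was 1.76-fold lower with PC-NVs (1.68 to 1.84), a log2 ratio of -0.80. Dkk1, the classical inhibitor and itself a Wnt target, had 0.167 FPKM in HG+HBS, or about 5.39 fragments, and was listed at 0 in HG+PC-NVs. A level of 0.107 FPKM would be 3 fragments there, so a difference in Dkk1 was not detectable at this depth. Dkk4 was listed at 0 in both libraries. Summed over the 4 genes, the FPKM was 152.7 with HBS and 78.2 with PC-NVs. Dkk3 made up 76.9% of this sum with HBS and 85.4% with PC-NVs.

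The antagonists that bind Wnt proteins split by gene. Frzb, also known as secreted frizzled-related protein 3 (chromosome 2, reverse strand, 80411970 to 80447625), was 3.01-fold lower in HG+PC-NVs (2.64 to 3.43, about 1005 and 291 fragments). Its log2 ratio was -1.48, the rank 25 from the lowest among all symbols counted. Sfrp2 (chromosome 3, 83766321 to 83774316), a stromal modulator of Wnt signals, had 5.35 FPKM with HBS and 2.999 FPKM with PC-NVs. This was 1.79-fold lower with a wide counting interval of 1.34 to 2.37. Sfrp4 went the other way, with 9.77 FPKM with HBS and 13.0 FPKM with PC-NVs, 1.33-fold higher (1.18 to 1.49). It was the only antagonist of the 6 counted that was higher with PC-NVs. Sfrp1 had 10.6 and 9.45 FPKM, and its counting interval of 0.992 to 1.26 for HG+HBS over HG+PC-NVs included 1. Wif1 stood at 1.07 and 0.700 FPKM, and its counting interval of 0.839 to 2.57 for HG+HBS over HG+PC-NVs included 1. Sfrp5 was listed at 0 in both libraries.

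The make-up of this group therefore differed between the libraries. Frzb made up 47.3% of the summed FPKM of the 6 genes with HBS and 23.4% with PC-NVs, whereas Sfrp4 made up 19.3% and 38.1%. The sum itself was 50.7 FPKM with HBS and 34.1 FPKM with PC-NVs. Over all 10 antagonists the sum was 203 FPKM with HBS and 112 FPKM with PC-NVs. Leaving out Dkk3, whose place in the pathway is debated, it was 86.1 and 45.5 FPKM. Without Dkk2, Dkk3 and Frzb, a set left out after the values were seen, it was 26.9 and 26.1 FPKM.

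**Figure D2:**
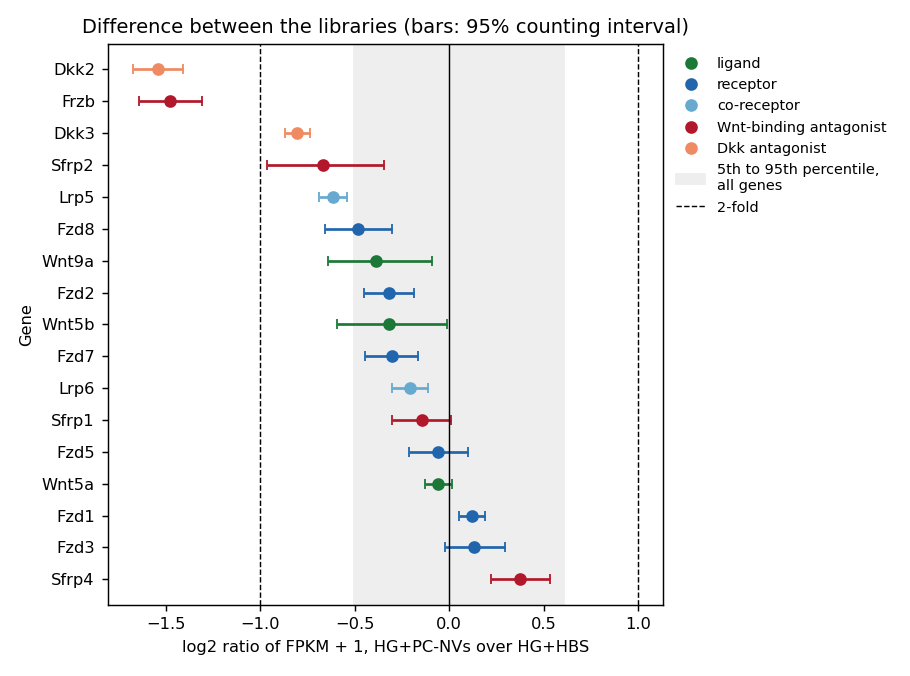
Log2 ratio of FPKM + 1, HG+PC-NVs over HG+HBS, of the 17 members with a mean log2(FPKM + 1) of at least 1. Points are coloured by role, bars are 95% intervals for counting error only, the grey band holds the 5th to 95th percentile of all 11785 symbols (-0.50 to 0.61) and dashed lines mark a 2-fold difference. Dkk2 (-1.54) and Frzb (-1.48) lie beyond the 2-fold line.

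The stretch of DNA before the start of a gene is shown for Dkk2, which differed most, and for Sfrp2, the other antagonist lower by over 1.5-fold whose start site was the same in RefSeq and GENCODE. RefSeq promoter sequences on GRCm38.p6 matched 28 of the 42 members. For Frzb the RefSeq start lies 229 bases inside the GENCODE gene, so its window is not shown. Each sequence is the 250 bases before the start site, 5′ to 3′ on the forward strand, Dkk2 from chr3:132085042-132085291 and Sfrp2 from chr3:83766071-83766320. Capitals mark every match, on either strand, to the LEF/TCF core CTTTGA, the GC box GGGCGG or the TATA box TATAAA, and no matches overlap.
Dkk2: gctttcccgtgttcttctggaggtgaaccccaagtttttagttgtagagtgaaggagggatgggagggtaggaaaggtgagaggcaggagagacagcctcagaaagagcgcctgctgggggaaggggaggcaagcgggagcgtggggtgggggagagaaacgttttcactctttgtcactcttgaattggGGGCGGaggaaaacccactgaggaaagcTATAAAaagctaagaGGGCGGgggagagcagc
Sfrp2: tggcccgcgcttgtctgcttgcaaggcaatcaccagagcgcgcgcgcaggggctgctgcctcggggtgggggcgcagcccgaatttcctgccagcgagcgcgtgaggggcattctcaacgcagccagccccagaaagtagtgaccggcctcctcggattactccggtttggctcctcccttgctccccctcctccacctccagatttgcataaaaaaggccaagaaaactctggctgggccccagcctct

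The Dkk2 window holds a TATA box that begins 32 bases before the start site and 2 GC boxes that begin 60 and 17 bases before it. The Sfrp2 window holds none of the 3 motifs. Among all 32851 RefSeq windows of this length, 13.8% hold the LEF/TCF core, 32.7% the GC box and 12.4% the TATA box. These are matches of letters, and no binding was measured.

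The smooth muscle markers Acta2 and Tagln were also lower in HG+PC-NVs, while pericyte markers went both ways. Of 6 smooth muscle markers, 3 passed the filter and 2 of these were lower by over 2-fold, against 0.798% of all symbols. Acta2, smooth muscle actin, had 27.6 FPKM with HBS and 8.02 FPKM with PC-NVs. Tagln, an actin-binding protein, had 17.3 and 7.34 FPKM. Smtn, which also passed, differed less, with 25.3 and 21.2 FPKM. The summed FPKM of the 6 was 72.04 with HBS and 37.0 with PC-NVs, and Myh11, the defining myosin of mature smooth muscle, was close to 0 in both, at 0.0108 and 0.0122 FPKM. Of 8 pericyte markers, 3 were higher and 5 lower, while 51.6% of all symbols counted were lower. Their median log2 ratio was -0.19, and their summed FPKM was 101.7 with HBS and 93.96 with PC-NVs. Rgs5 (1.69 and 7.23 FPKM) and Kcnj8 (7.98 and 20.4 FPKM) were higher by over 2-fold, against 2.38% of all symbols. Anpep (26.7 and 13.7 FPKM) and Cspg4 (20.4 and 12.2 FPKM) were lower by over 1.5-fold, against 3.57% of all symbols. Of 8 fibroblast markers, 6 were lower and 2 higher, with a median of -0.21. Their sums of 2079 and 2426 FPKM went up through Dcn (623 and 1283 FPKM), while Col1a2 (312 and 198 FPKM) and Thy1 (549 and 412 FPKM) were lower. Of 6 myeloid markers, 3 were higher and 3 lower, and the sums of 302 and 521 FPKM differed through Cd14 (36.6 and 252 FPKM) and Adgre1 (7.44 and 42.5 FPKM). Cd68 (36.2 and 26.3 FPKM) and Csf1r (8.39 and 6.204 FPKM) were lower. The epithelial keratin Krt18 had 9.61 and 2.05 FPKM, while Cdh1, Krt5 and Krt14 were listed at 0 in both libraries. The 4 Schwann cell markers summed to 1.92 and 2.10 FPKM. The part of these cell types in the lower antagonist levels was not tested.

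Wnt5a was the main ligand. The gene (chromosome 14, 28504750 to 28527448), which encodes the prototype non-canonical ligand, had 35.5 FPKM with HBS and 34.1 FPKM with PC-NVs. This was 82.1% of the summed FPKM of the 19 ligands with HBS and 86.3% with PC-NVs. The ratio of 1.04 for HG+HBS over HG+PC-NVs had a counting interval of 0.991 to 1.10. The steady sum covered 2 rows that went opposite ways. The first row had 13.9 FPKM with HBS and 18.2 FPKM with PC-NVs, a log2 ratio of 0.37. The second had 21.7 and 15.9 FPKM, a log2 ratio of -0.42. The files do not say what each row stands for. If the rows are transcripts, Cufflinks divides reads between those that overlap by estimation.

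The other ligands were far below Wnt5a. Wnt5b, a close relative with a similar non-canonical action, had 4.44 FPKM with HBS and 3.37 FPKM with PC-NVs, which was 1.32-fold lower (1.01 to 1.71). Wnt9a, known from joint development, had 1.44 and 0.865 FPKM, 1.66-fold lower (1.12 to 2.57) on about 63.5 and 33.3 fragments. No other ligand reached 1 FPKM. Wnt16, Wnt2b, Wnt11, Wnt2, Wnt4 and Wnt7b lay between 0.172 and 0.418 FPKM in HG+HBS and between 0.0248 and 0.271 FPKM in HG+PC-NVs. The counting intervals of Wnt16, Wnt2b, Wnt11, Wnt2 and Wnt4 included 1. Wnt7b had about 7.76 fragments with HBS and 0.977 with PC-NVs. The remaining 10 ligands, the canonical Wnt1, Wnt3, Wnt3a, Wnt8a and Wnt10b and also Wnt6, Wnt7a, Wnt8b, Wnt9b and Wnt10a, had at most 3 fragments in either library.

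Among the 10 Frizzled receptors, Fzd1 led. It (chromosome 5, 4753839 to 4758035) had 60.7 FPKM with HBS and 66.0 FPKM with PC-NVs, which was 55.4% and 62.3% of the summed FPKM of the receptors. Fzd1 was 1.09-fold higher with PC-NVs, with a counting interval of 1.04 to 1.14. The log2 ratio of 0.12 became -0.24 with upper-quartile scaling, or 0.09 once the median of all symbols in that setting (-0.33) was taken off. Fzd2 followed with 20.5 FPKM with HBS and 16.2 FPKM with PC-NVs. Fzd7, a relative of Fzd1 and Fzd2 in the same subfamily, had 13.8 and 11.0 FPKM. Both were lower with PC-NVs to a like degree, 1.26-fold (1.15 to 1.39) for Fzd2 and 1.26-fold (1.13 to 1.40) for Fzd7. Fzd8 (chromosome 18, 9212163 to 9218136) had the largest difference of the 6 receptors counted, 5.44 FPKM with HBS and 3.61 FPKM with PC-NVs, or 1.51-fold lower (1.29 to 1.76). On the log2(FPKM + 1) scale its ratio was -0.48, still within the 5th to 95th percentile of all symbols.

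The remaining receptors were low or level. Fzd5, the closest relative of Fzd8, had 5.54 FPKM with HBS and 5.28 FPKM with PC-NVs in sum. Its rows differed from each other. The first was 1.01 FPKM with HBS and 0.000992 FPKM with PC-NVs, while the second was 4.52 and 5.28 FPKM, so the log2 ratio was -0.06 for the sum and 0.18 for the higher row alone. Fzd3 had 1.52 and 1.76 FPKM, a log2 ratio of 0.13 that became -0.09 with upper-quartile scaling and 0.24 with that median taken off. Fzd4, the Norrin receptor of endothelium, had 0.859 FPKM with HBS and 1.12 FPKM with PC-NVs on about 76.8 and 87.1 fragments, and its counting interval of 0.569 to 1.05 for HG+HBS over HG+PC-NVs included 1. Fzd6 had 1.03 and 0.716 FPKM, with an interval of 0.947 to 2.16. Fzd9 had 0.178 and 0.125 FPKM, and Fzd10 had at most 3 fragments in either library.

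The co-receptors were lower with PC-NVs, Lrp5 more than Lrp6. Lrp5 (chromosome 19, reverse strand, 3584828 to 3686564) had 54.6 FPKM with HBS and 35.3 FPKM with PC-NVs, 1.55-fold lower (1.47 to 1.63) and a log2 ratio of -0.61. Lrp6, its paralog with the larger role in embryonic Wnt signalling, had 13.9 and 11.9 FPKM, 1.17-fold lower (1.09 to 1.26). The counting intervals of these folds do not meet. By level, Lrp5 had rank 3 of the 42 members in both libraries.

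**Figure D3:**
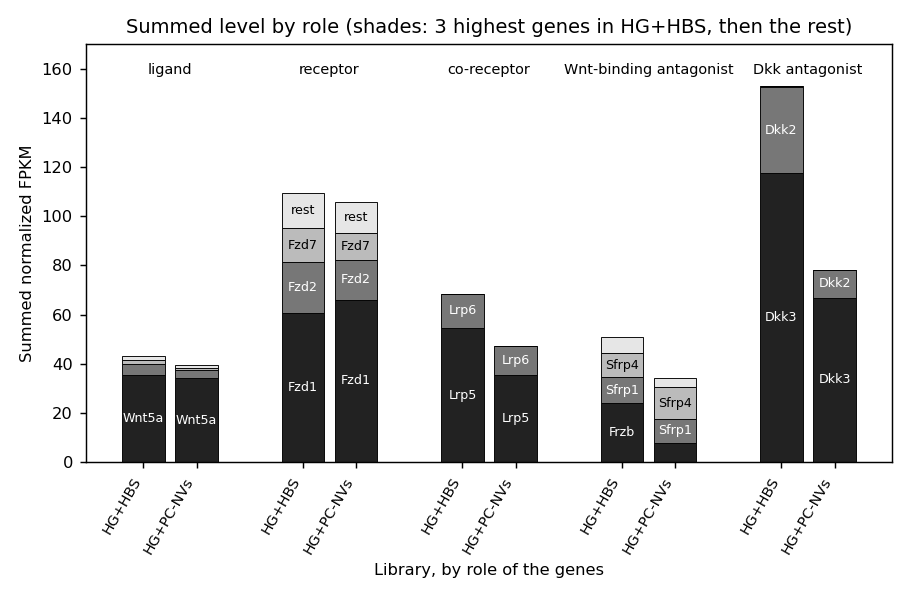
Summed normalized FPKM (linear axis from 0) of the members by role in each library. Shades give the 3 genes highest in HG+HBS and the rest. The Dkk genes, mostly Dkk3, reach 152.7 FPKM in the HG+HBS bar and 78.2 FPKM in the HG+PC-NVs bar. The ligands (43.3 and 39.5 FPKM) and receptors (109.6 and 105.9 FPKM) are close to level.

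Axin2, which β-catenin switches on and which helps to degrade β-catenin in turn, is the common readout of canonical signalling. It had 0.738 FPKM with HBS and 0.783 FPKM with PC-NVs, on about 41.8 and 38.7 fragments. The ratio of 0.943 for HG+HBS over HG+PC-NVs had a counting interval of 0.610 to 1.45. Axin2 was thus low, and a difference smaller than this interval was not detectable at this depth.

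The other genes of the pathway were described by 8 lists with 83 different symbols, of which 62 passed the filter. By over 2-fold, 0 of the 62 were higher and 0 lower. By over 1.5-fold, 3 were higher (4.84%) and 4 lower (6.45%), beside 5.33% and 3.57% of all symbols. Their median log2 ratio was -0.09, and 25 were higher and 37 lower. Of all symbols counted 51.6% were lower, against which the counts of each list can be read. The 7 genes past 1.5-fold are named here after their values were seen. The higher ones were Draxin, Tmed5 and Tspan12. Draxin, an axon guidance protein that can bind Lrp6, had 5.59 FPKM with HBS and 11.2 FPKM with PC-NVs. Tmed5, a protein of the secretory route, had 18.3 and 33.9 FPKM. Tspan12, the partner of Fzd4 in Norrin signalling, had 0.744 and 1.74 FPKM. The lower ones were Ccn4, a matrix-associated Wnt target listed as Wisp1 (7.78 and 4.14 FPKM), Daam2, a Dishevelled-binding formin (2.71 and 1.26 FPKM), Pygo1, a nuclear β-catenin co-factor (2.24 and 1.08 FPKM), and Ccnd1, the Wnt target cyclin D1 (142.6 and 91.6 FPKM).

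Wnt secretion genes were present. Wls, the carrier that brings Wnt proteins to the surface, had 73.4 FPKM with HBS and 64.0 FPKM with PC-NVs, and Tmed2 had 191 and 242 FPKM. In this list 4 of 5 genes were higher, with a median log2 ratio of 0.24. The list also held Notum, which is not a secretion gene. It was among the higher, at 1.61 and 1.71 FPKM (log2 ratio 0.05).

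R-spondins amplify Wnt signals by removing the ubiquitin ligases Rnf43 and Znrf3 from the membrane. Of the 9 genes of this group 3 passed the filter, with a median log2 ratio of 0.53. Rspo3 had 2.91 FPKM with HBS and 4.64 FPKM with PC-NVs. Its receptor Lgr4 had 1.95 and 3.42 FPKM, and Znrf3 had 1.18 and 1.15 FPKM.

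In the list of other receptors and co-receptors, 8 of the 9 that passed were lower, with a median log2 ratio of -0.33. Of these 8, Ryk and Musk were nearly level, each with a log2 ratio of -0.02. The list also held Ndp (1.45 and 0.776 FPKM), the gene of the ligand Norrin, which was among the lower. Ryk, a receptor for Wnt5a, had 39.1 FPKM with HBS and 38.6 FPKM with PC-NVs. The co-receptor Ptk7 had 36.6 and 27.2 FPKM. Adgra2, which works with Reck in Wnt7 signalling of brain endothelium, had 21.1 and 17.9 FPKM. In the planar polarity list 4 of 6 were lower (median -0.19), led in level by Prickle2 (15.9 and 10.7 FPKM), Vangl1 (11.1 and 9.80 FPKM) and Daam1 (7.29 and 8.83 FPKM).

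The list of antagonists outside of the Sfrp and Dkk families had a median log2 ratio of -0.17 over 6 genes, 4 lower and 2 higher. The lower ones include Cthrc1 (6.90 FPKM with HBS and 5.29 FPKM with PC-NVs), which is not a general antagonist. The Dkk receptor Kremen1 had 19.5 FPKM with HBS and 16.5 FPKM with PC-NVs. Igfbp4 had 177 and 163 FPKM, and Tpbg had 46.3 and 64.7 FPKM.

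The intracellular core was level. All 16 of its genes passed, with a median log2 ratio of 0.05 and a range of -0.32 to 0.35. β-catenin itself, Ctnnb1, had 282.5 FPKM with HBS and 315 FPKM with PC-NVs, the kinase Csnk1a1 had 94.4 and 110.6 FPKM, and Csnk1d had 58.0 and 55.3 FPKM. Of the 12 nuclear factors that passed, 9 were lower and 3 higher (median -0.21), with Tle1 at 30.2 and 29.6 FPKM, Pygo2 at 24.98 and 20.5 FPKM and Bcl9l at 19.2 and 19.4 FPKM. Of the 9 target genes that passed, 6 were lower and 3 higher (median -0.04). The targets Ccn4 and Ccnd1 were the 2 lower by over 1.5-fold (22.2%), against 3.57% of all symbols. By the same fold 0 targets were higher, against 5.33% of all symbols. Ccnd1 and Cd44 were the highest, Cd44 at 130.1 and 146 FPKM, and Myc was at 15.2 and 14.7 FPKM. Apcdd1 (4.05 and 2.44 FPKM) and Bambi (9.03 and 5.97 FPKM), named after their values were seen, had log2 ratios of -0.55 and -0.52. RNA levels do not show the activity of β-catenin, which is set by protein stability.

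**Figure D4:**
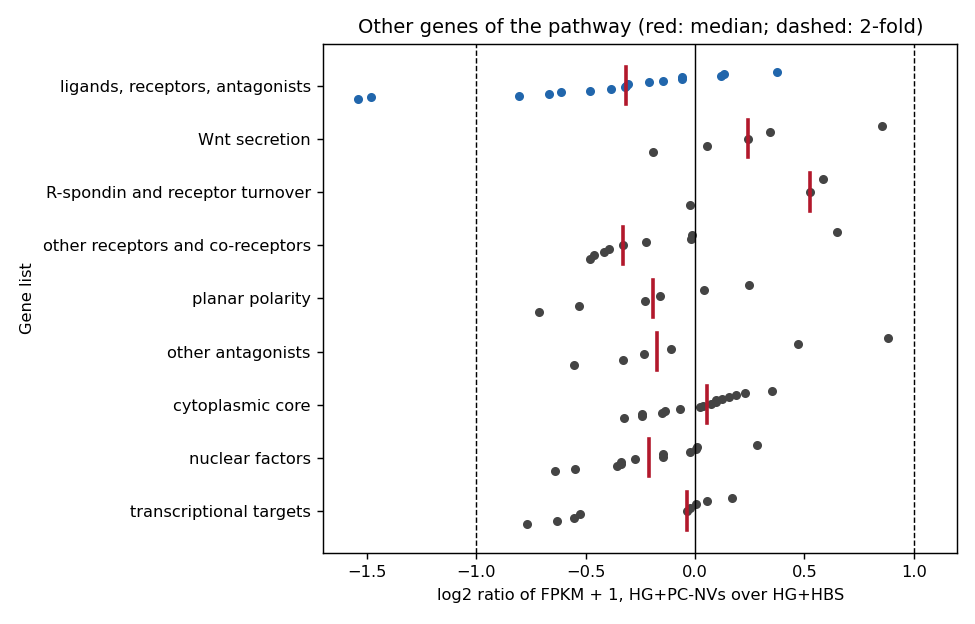
Log2 ratio of FPKM + 1, HG+PC-NVs over HG+HBS, of the 17 members (blue) and of the genes of 8 other pathway lists (grey) with a mean log2(FPKM + 1) of at least 1. Each point is a gene, red bars are medians and dashed lines mark a 2-fold difference, which of the points drawn Dkk2 and Frzb alone pass.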

How the data were processed

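RNA of MCECs was analysed, 1 library each for HG+HBS and HG+PC-NVs. The authors prepared stranded libraries from poly(A) RNA, removed adapters and low-quality bases, mapped paired-end reads with TopHat (mm10 in the submitters' processing notes), counted with BEDTools and Cufflinks, and normalized in R with edgeR by what they call quantile normalization. Software versions and the annotation are not given in the sources used here. The authors deposited log2(normalized FPKM + 1) for 33299 rows per library. The scale was read from the values, up to 13.99.

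The members and gene lists were chosen with earlier results of these data known. Values were converted to FPKM, summed per symbol and compared as deposited, with a pseudocount of 1 FPKM. Genes with a mean log2(FPKM + 1) of at least 1 were counted, with folds of 2 and 1.5 as thresholds. Members at 1 FPKM or more in either library were named with values. Of the other pathway lists, the 3 highest genes and those past 2-fold were to be named. No p-value was computed, since each condition has 1 library.

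Coordinates and transcript lengths are from GENCODE M21 (GRCm38), Ccn4 and Ccn5 being matched through RefSeq synonyms. The worth of 1 fragment was the most frequent low FPKM times kb over 2189 genes with a single transcript above 1500 nt, 0.0752 with HBS and 0.0862 with PC-NVs, with a second peak at 1.99 and 2.01 times these. Fragments per gene use the longest coding transcript and are approximate, and 3 fragments were taken as the floor. Calculations were tested on simulated data. Scripts ran in Python 3.11.15 with matplotlib 3.10.9, scipy 1.17.1, pandas 2.3.3 and numpy 2.4.6. Alternatives concerned normalization, pseudocount, filter, rows and fold. Normal-glucose cultures, the protein array and all other assays were not analysed here.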

Additional observations from a re-analysis of the deposited data

How the results depend on the processing

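The 2 members lower by over 2-fold, Dkk2 and Frzb, kept log2 ratios between -1.89 and -1.29 and between -1.81 and -1.16 under all 7 alternatives of normalization, pseudocount and rows. The count of lower members moved with the threshold, to 5 at a fold of 1.5 and 0 at a fold of 4. It was 3 with upper-quartile scaling, where Dkk3 (-1.16) joined, and the median of the members moved from -0.32 to -0.60. That scaling takes the quartile over rows above 0, of which HG+HBS has 25907 and HG+PC-NVs 22159, and it moved the median of all symbols by -0.32. Over rows above 0 in both libraries, an alternative chosen after seeing the data, the median of the members was -0.35 (shift of all symbols -0.03) and the count 2. With quantile normalization between the libraries the median was -0.33 and the count 2. The median was smaller with a pseudocount of 5 (-0.17) and without the filter (-0.16), each with a count of 2. No member was higher by over 2-fold in any setting. Of the 20 named members 17 kept their direction. Fzd1 and Fzd3 turned lower under the upper-quartile scaling alone, and with the median of all symbols there (-0.33) taken off they stayed at 0.09 and 0.24. Fzd5 turned higher with the highest row. Of 140 alternative values of single members, 117 stayed within the counting interval. That interval is wide for low genes, so the count does not measure how stable a value is to processing. No paired analysis was possible because each condition has 1 library, and for the same reason no replicate could be left out. Depth limits the 13 members at or under 3 fragments in both libraries, as well as Dkk1 and Wnt7b.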

Other observations

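Several Wnt genes lie beside each other in the mouse genome (GRCm38, GENCODE M21), and most members of such pairs were at or near 0. Wnt3a and Wnt9a are 16.2 kb apart on chromosome 11. Wnt3a was listed at 0 in both libraries, while Wnt9a had 1.44 FPKM with HBS and 0.865 FPKM with PC-NVs. Wnt9b and Wnt3, 24.3 kb apart on the same chromosome, were listed at 0 in both libraries. Wnt6 and Wnt10a, 6.19 kb apart on chromosome 1, and Wnt10b and Wnt1, 11.7 kb apart on chromosome 15, had at most 3 fragments each in either library.

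Wnt11 has 4 rows. With HBS its level lay in rows 2 and 4 (0.133 and 0.131 FPKM), and with PC-NVs in rows 1 and 3 (0.156 and 0.0481 FPKM), with the other rows at or near 0. The whole gene rests on about 12.1 and 8.15 fragments, so the division among rows comes from few reads.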
